A study of Mus musculus with 4 samples.

Results

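The kappa variable gene segments of the mouse, the 160 genes whose symbol begins with Igkv among the 31053 genes of the count matrices, were followed in splenic germinal center (GC) B cells. Each of the 9804 cells that the study annotated as GC B cells, out of 39009 barcodes, was assigned the Igkv gene with most of its unique molecular identifiers (UMIs, counted molecules), provided that this gene had 3 or more UMIs and no tie. This call could be made in 142 of the 9804 annotated cells. The B220+IgD- fraction was sorted from spleens of mice given sheep red blood cells (SRBC) 10 days earlier, and each of 4 libraries was 1 mouse. All 4 mice, described by the study as young adult females of the C57BL/6J background, carried the Cγ1-cre allele, which drives Cre in GC B cells. WT had no floxed allele, C was Crebbp fl/+, K was Kmt2d fl/+ and CK was Crebbp fl/+ and Kmt2d fl/+. With 1 mouse per genotype no test between genotypes was possible, and cells of 1 mouse can be members of 1 clone, so the exact 95% intervals given for single libraries cover counting error only.

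A kappa light chain is made when a developing B cell joins 1 variable (V) segment of the Igk locus to a joining (J) segment, after which the V-J exon is spliced to the constant exon of Igkc. A B cell usually keeps a single productive light chain, kappa or lambda, and its daughters inherit it, so the V segment also marks descent. In the GC, dividing centroblasts (CB) mutate these V regions and centrocytes (CC) compete for antigen and T cell help, after which cells may leave as memory or plasma cells.

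All 160 genes were matched by identifier to the GENCODE vM21 annotation of GRCm38 (mm10) and lie on chromosome 6 between 67555497 and 70704177, a stretch of 3149 kb. The annotation lists 100 of them as functional V genes and 60 as pseudogenes, with 75 genes on the plus and 85 on the minus strand. In all barcodes together 131 of the 160 genes had any UMI, and 109 had one in annotated cells. Functional genes held 98.8% of the 3634 Igkv UMIs of the annotated cells, and pseudogenes held the other 44 UMIs. Igkv1-131 and Igkv4-81 were the 2 functional genes with no UMI in any barcode. Of the 100 functional genes, 44 shared at least 1 stretch of 98 bases, the length of a read, with another Igkv gene, but in only 1, Igkv6-20, were more than 50% of such stretches shared.

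The genes on which the results turn are shown by the germline end of their coding sequence, the last 90 bases before the joint with a J segment. The capitals begin at the last in-frame cysteine codon, just after which the third complementarity determining region (CDR3), part of the antigen-contacting surface, starts. The sequences are from the GENCODE vM21 transcripts (GRCm38), 5′ to 3′ along the gene. The first 4 had most calls in annotated cells, and Igkv14-111 was relatively more frequent in annotated cells. The last 3 were relatively more frequent in those B cells outside the annotation that fell below the GC and plasma cell marker thresholds given below.
Igkv1-117 (chr6:68121738-68121827, plus strand): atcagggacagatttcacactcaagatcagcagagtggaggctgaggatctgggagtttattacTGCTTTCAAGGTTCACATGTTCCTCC
Igkv1-110 (chr6:68271178-68271267, plus strand): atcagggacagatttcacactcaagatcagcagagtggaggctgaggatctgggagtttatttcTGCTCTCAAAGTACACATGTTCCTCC
Igkv1-135 (chr6:67610419-67610508, plus strand): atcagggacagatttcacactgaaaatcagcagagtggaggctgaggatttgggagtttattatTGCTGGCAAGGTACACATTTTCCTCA
Igkv12-44 (chr6:69814631-69814720, minus strand): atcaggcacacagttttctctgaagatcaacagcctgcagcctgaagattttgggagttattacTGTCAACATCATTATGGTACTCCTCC
Igkv14-111 (chr6:68256780-68256869, plus strand): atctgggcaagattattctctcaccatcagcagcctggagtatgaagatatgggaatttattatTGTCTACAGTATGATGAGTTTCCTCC
Igkv19-93 (chr6:68736297-68736386, minus strand): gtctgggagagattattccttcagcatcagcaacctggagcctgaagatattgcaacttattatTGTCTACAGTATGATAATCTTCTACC
Igkv12-46 (chr6:69764523-69764612, minus strand): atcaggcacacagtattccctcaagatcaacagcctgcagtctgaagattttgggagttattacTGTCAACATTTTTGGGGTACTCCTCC
Igkv2-109 (chr6:68303069-68303158, plus strand): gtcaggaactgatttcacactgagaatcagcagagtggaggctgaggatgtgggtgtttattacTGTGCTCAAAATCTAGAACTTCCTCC

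Igkv1-117 and Igkv1-110, which differ in the capitals above, were 97.2% identical over their whole coding sequences, with 10 mismatches, and shared 17.3% and 17.4% of their 98-base stretches with another Igkv gene. Igkv12-44 and Igkv12-46 were 95.4% identical. Reads of such pairs, in particular of mutated GC sequences, can be assigned to the wrong member, so values of these pairs are less certain. In annotated cells 339 cells had a UMI of Igkv1-110, 357 had one of Igkv1-117, and 10 had both.

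B cells outside the annotation were defined by B cell markers and by the absence of T, natural killer and myeloid markers. Of these, 203 had UMIs of at least 3 of 5 plasma cell markers, and 3137 others had UMIs of at least 2 of 7 GC markers. The remaining 8449, below both thresholds, are called unannotated B cells below. In these, 16.6% (C) to 21.8% (WT) of cells per library had a UMI of 1 GC marker, so GC B cells of low depth can be among them. The annotated cells had UMIs of at least 2 B cell markers in 99.6% to 99.9% of cells per library, and at least 2 of 7 GC markers in 85.6% to 93.0%. Depth differed between the classes, with a median of 4193 UMIs in annotated cells, 1622 in unannotated B cells, 10339 in those with GC markers and 13110 in those with plasma cell markers. Libraries held 33270825 to 39803865 UMIs in all, and a pair of libraries shared 17 to 31 barcodes, of which 0 to 4 were annotated in both. The scrublet doublet caller marked 3.32% to 5.01% of barcodes per library, which were kept.

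Igkv genes were sparsely counted in these libraries, which read the 3′ end of transcripts, whereas the V segment lies toward the 5′ end. The annotated cells had 77.5 Igkv counts per 1e6 UMIs (CPM) for WT, 108 for C, 40.5 for K and 111 for CK, against an Igkc level of 13042, 14939, 14183 and 15329 CPM. No UMI of an Igkj gene was found in any class. At least 1 Igkv UMI was present in 27.4% of annotated cells for WT, 32.0% for C, 16.3% for K and 31.2% for CK. In T cells of the same libraries, which do not make light chains, this share was 1.20%, 0.680%, 0.403% and 0.784%, at a median depth of 2433 UMIs over all T cells. After each cell was thinned to 2000 UMIs, which left out 568 annotated and 2063 T cells, the share was 13.8%, 18.3%, 7.13% and 18.7% in annotated cells and 0.678%, 0.499%, 0.317% and 0.979% in T cells. At matched depth the share in annotated cells was thus far above that in T cells in each library, and K had the lowest share in both.

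Calls were made in 22 of 1227 annotated cells for WT (1.79%, interval 1.13% to 2.70%), in 39 of 2041 for C (1.91%, 1.36% to 2.60%), in 11 of 2583 for K (0.426%, 0.213% to 0.761%) and in 70 of 3953 for CK (1.77%, 1.38% to 2.23%). WT, C and CK overlapped, and the interval of K lay below those of the other 3. No call was made in 7034 T cells, which allows a share of up to 0.0426% (3 counts of the total). Of the 142 calls, 103 rested on exactly 3 UMIs, 22 on 4 and 17 on 5 or more, and the highest was 11 UMIs of Igkv17-127 in 1 K cell. Called cells were deeper than the others, with a median of 5103 against 4180 UMIs. A UMI of a second Igkv gene was present in 22 called cells, and no annotated cell had a second gene with 3 UMIs.

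The 142 calls fell on 33 genes, of which 16 were called once. Igkv1-117 was called in 27 cells, Igkv1-110 in 25 and Igkv12-44 in 21, and Igkv1-135 followed with 9. Igkv1-117, a V gene far from the J segments, was called in 4 cells for WT, 4 for C, none for K and 19 for CK, where it led. Its near copy Igkv1-110 was called in none for WT, 9 for C, where it led, 1 for K and 15 for CK. Igkv12-44, a V gene nearer to the J segments, led for WT with 5 cells and was called in 8 for C, 1 for K and 7 for CK. The 11 calls in K fell on 11 different genes. As a share of calls the leading gene held 22.7% in WT, 23.1% in C and 27.1% in CK.

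**Figure D1:**
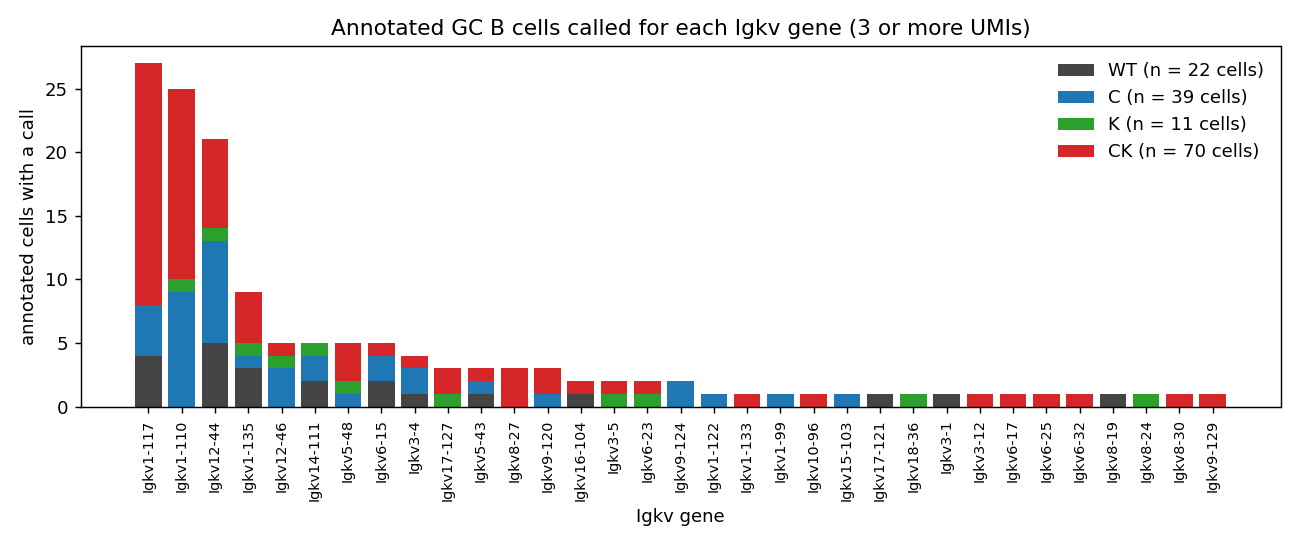
Number of annotated GC B cells (y axis) called for each Igkv gene (x axis) at 3 or more UMIs, stacked by library. Igkv1-117, Igkv1-110 and Igkv12-44 lead with 27, 25 and 21 of the 142 cells, and 16 genes were called once.

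The probability that 2 called cells of a library carry the same Igkv gene was 9.09% in WT, 10.4% in C and 12.9% in CK, and 0 of the pairs in K matched. These values rest on few cells. When a call was allowed from 1 UMI, a setting added after the data were seen, 315 cells for WT, 622 for C, 405 for K and 1150 for CK had a single leading gene. The same-gene probability was then 3.77% for WT (3.05% to 4.49%), 5.99% for C (5.04% to 6.93%), 3.71% for K (3.001% to 4.41%) and 5.45% for CK (4.82% to 6.09%). These intervals are normal approximations for counting error, and on them C and CK lay above WT and K. It cannot be told apart from a difference between single mice.

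Whether 1 UMI names the gene a cell uses was read from cells with exactly 2 Igkv UMIs. In 320 of 456 such annotated cells (70.2%) both UMIs were of 1 gene, with 64.0%, 78.3%, 67.9% and 67.4% (WT, C, K, CK). Any pair of annotated cells called from 1 UMI matched in 4.92% over all libraries. In unannotated B cells with exactly 2 Igkv UMIs the share was lower, 177 of 342 cells (51.8%), with 43.6%, 57.7%, 30.0% and 55.6% in the 4 libraries in the same order, below the annotated cells in each library. The exact intervals of annotated and unannotated cells overlapped in WT, K and CK and were apart in C. The value of K in unannotated B cells rests on 20 cells.

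By summed UMIs over libraries, of which CK held the largest part, Igkv1-117 and Igkv1-110 again led and Igkv1-135 stood ahead of Igkv12-44. In WT alone Igkv1-117 (49 UMIs), Igkv12-44 (36), Igkv1-135 (35) and Igkv14-111 (34) stood ahead of Igkv1-110 (33). Igkv1-117 held 497 of the 3634 annotated Igkv UMIs, Igkv1-110 held 455, Igkv1-135 held 230, Igkv12-44 held 198, Igkv6-15 held 168 and Igkv14-111 held 139. The first 3 genes together held 32.5% and the first 10 held 56.6%. The family Igkv1, with 10 functional genes, held 26.6% of annotated Igkv UMIs for WT, 37.0% for C, 27.8% for K and 37.7% for CK, while Igkv4, the family with most genes (26 functional), held 3.40%, 4.90%, 8.56% and 3.97%. Across the 100 functional genes the shares of UMIs correlated between annotated cells of any 2 libraries with Pearson values of 0.85 to 0.93, a description over genes that are not independent.

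Among the deposited subtypes, calls at 3 UMIs were made in 71 of 3758 transitioning CB-to-CC cells, 38 of 2262 CB, 20 of 2444 CC, 12 of 680 early CB, 1 of 578 prememory cells and 0 of 82 recycling cells. By the same rule recycling cells allow a share of up to 3.66%. Median depth also differed, from 2700 UMIs in prememory cells to 5596 in early CB and 6244 in recycling cells. Igkv UMIs per 1000 Igkc UMIs, a ratio in which the depth per cell cancels, were 5.23 in early CB, 5.81 in CB, 5.99 in transitioning cells, 5.66 in CC, 4.86 in recycling cells and 6.23 in prememory cells, over all libraries. These pooled values mix libraries of unequal level. Early CB and prememory cells had 9.21 and 4.70 for WT, 7.19 and 7.55 for C, 2.14 and 3.69 for K, and 6.07 and 8.57 for CK. The order of the subtypes thus differed between libraries.

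From 1 UMI, Igkv1-110 led in 17.6% of the 188 early CB with a call (12.4% to 23.8%) and in 6.36% of the 110 prememory cells (2.60% to 12.7%). Igkv1-117 led in 15.4% of early CB (10.6% to 21.4%) and also in 6.36% of prememory cells. The interval of Igkv1-110 in early CB only just overlapped that in prememory cells, and prememory cells with these genes came from 3 libraries each. Igkv1-135 led in 11 of the 110 prememory cells (10.0%, 5.10% to 17.2%). Igkv19-93 led in 5 of these 110 cells and in 1 of 188 early CB. The same-gene probability was 7.03% in early CB and 2.99% in prememory cells pooled over libraries, and the pooling mixes unequal numbers of cells per genotype.

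Annotated cells that counted more Igkc than lambda constant UMIs (9037 cells) had an Igkv UMI in 28.5%, and cells that counted more of Iglc1, Iglc2 and Iglc3 (713 cells, 7.27%) in 8.70%. In 193 annotated cells with at least 10 times as much lambda as kappa the share was 2.07% (0.568% to 5.22%). By heavy chain isotype the share was 27.1% in Ighm-led, 26.1% in Ighg1-led, 28.4% in Ighg2b-led and 27.4% in Ighg3-led cells, with overlapping intervals.

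Compared with unannotated B cells, annotated cells had less Igkv RNA in each library. Unannotated B cells had 152 CPM for WT, 209 for C, 110 for K and 267 for CK, and Igkc was also higher there, at 20803, 22922, 28841 and 32010 CPM. The log2 change of the Igkv sum per total, annotated over unannotated and averaged over the 4 libraries, was -1.16. Without cells of 10 or more Igkv UMIs, described below, unannotated B cells had 147, 185, 94.6 and 206 CPM for WT, C, K and CK. Annotated cells then had 77.5, 108, 39.7 and 111 CPM, so the decrease was smaller but kept its direction. The 18 unannotated cells of this kind were also rich in Igkc, and the change of Igkc without them is not given. Igkc itself fell by 0.80 on the log2 scale (SE 0.05, adjusted p = 1.4e-08), Ighm by 0.96 (SE 0.07, adjusted p = 1.8e-08) and Iglc1, a lambda constant gene, by 1.60 (SE 0.04, adjusted p = 4.4e-12), in edgeR's quasi-likelihood test with the library as a block. Ighg1 and Ighg3, with log2 changes of -1.16 and -0.31, did not pass (adjusted p = 0.23 and 0.28), and their direction differed between libraries. Ighg1 was higher in annotated cells for WT (96.5 against 35.6 CPM) and C (163 against 47.9). It was lower for K (222 against 2778) and CK (155 against 1423). Ighg3 was higher for CK (197 against 94.0) and lower for WT, C and K.

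In this edgeR fit 18 of the 160 Igkv genes had enough UMIs to be tested, and 13 of them were lower and none higher in annotated cells, at an adjusted p of 0.05 or less over all genes. The same 13 were past an unadjusted p of 0.05, and DESeq2 called 13 lower and none higher. The background was high, since 33.4% of all 10221 genes tested were called lower and 34.4% higher, and the annotation was itself made from the expression of these cells. The median log2 change was -1.35 over the 18 Igkv genes and -0.01 over all genes. The filter requires enough CPM in as many libraries as a class holds. Of the 18 genes, 6 reached its CPM cutoff in all 4 annotated libraries, and 3 of these were lower. Another 8 reached it in all 4 libraries of the unannotated class only, and 7 of these were lower, so the count of lower genes and the order of the decreases are in part set by the filter. With no filter 25.2% of 123 Igkv genes were lower, beside 21.3% of all genes. The 5 largest decreases were in Igkv2-109, Igkv19-93, Igkv12-89, Igkv12-46 and Igkv3-2. Igkv2-109 and Igkv12-89 reached the cutoff in 0 annotated libraries, Igkv19-93 and Igkv3-2 in 1, and Igkv12-46 in 3. In unannotated B cells each reached it in 4 libraries, except Igkv3-2 in 3. These genes were thus tested largely through the class where they are high, which limits what their decreases and p-values show.

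Igkv19-93, the single gene of its family, had 1.65 CPM for WT, 0.920 for C, 1.34 for K and 1.30 for CK in annotated cells, and 9.06, 9.19, 10.7 and 10.6 CPM in unannotated B cells, so that the classes did not overlap. It fell by 2.90 on the log2 scale (SE 0.22, adjusted p = 6.0e-08, lower in 4 of 4 libraries). Igkv2-109 had 0.660, 0.575, 0.158 and 0.519 CPM against 6.19, 5.91, 4.43 and 5.94, and fell by 3.52 (SE 0.32, adjusted p = 3.0e-07), again with no overlap. Igkv19-93 and Igkv2-109 passed the filter through unannotated B cells, with 1 and 0 annotated libraries at the cutoff. Their decreases, p-values and lack of overlap are thus in part set by the filter. Igkv12-46 had 1.65, 4.83, 1.26 and 2.08 CPM against 10.4, 10.2, 7.75 and 9.57, and fell by 1.90 (SE 0.26, adjusted p = 2.0e-05). These 3 genes were called at 3 UMIs in 0, 0 and 5 annotated cells and in 1, 0 and 0 unannotated B cells, Igkv19-93, Igkv2-109 and Igkv12-46 in that order, so that nearly all of their unannotated signal came from cells with 1 or 2 of their UMIs.

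Igkv14-111 was the one tested gene with a positive log2 change, 0.42 (SE 0.27, adjusted p = 0.18). Its levels were 5.61 CPM for WT, 4.25 for C, 1.66 for K and 3.05 for CK in annotated cells against 3.32, 3.28, 2.59 and 1.98 in unannotated B cells, higher in 3 of 4 libraries. Igkv12-44 (-0.33, adjusted p = 0.20), Igkv6-15 (-0.26, adjusted p = 0.53), Igkv10-96 and Igkv6-23 did not pass either.

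The decrease of the 2 leading genes depended on a few cells. Igkv1-117 had 8.08, 13.8, 3.31 and 18.6 CPM in annotated cells and 13.7, 17.7, 15.5 and 48.5 CPM in unannotated B cells of WT, C, K and CK, and fell by 1.05 on the log2 scale (SE 0.20, adjusted p = 0.00035). Igkv1-110 fell by 0.86 (SE 0.16, adjusted p = 0.00038). However, 18 of the 8449 unannotated B cells, 1, 5, 2 and 10 (WT, C, K, CK), had 10 or more Igkv UMIs and held 14.1% of the Igkv UMIs of that class. Each of the 18 had 2 of the 5 plasma cell markers, 1 short of the 3 that define the plasma class, against 2.09% of all unannotated B cells and 28.9% of annotated cells. Their median was 5071 Igkc UMIs against 30, at a median depth of 10105 against 1622 UMIs. In 11 of the 18 the leading gene was Igkv1-110 or Igkv1-117. Without cells of 10 or more Igkv UMIs, a setting added after the data were seen, the change of Igkv1-117 was 0.03 (SE 0.13, adjusted p = 0.87) and that of Igkv1-110 was -0.09 (SE 0.19, adjusted p = 0.67). The other 11 calls were kept, among them Igkv19-93 (-2.91), Igkv2-109 (-3.53) and Igkv12-46 (-1.90).

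**Figure D2:**
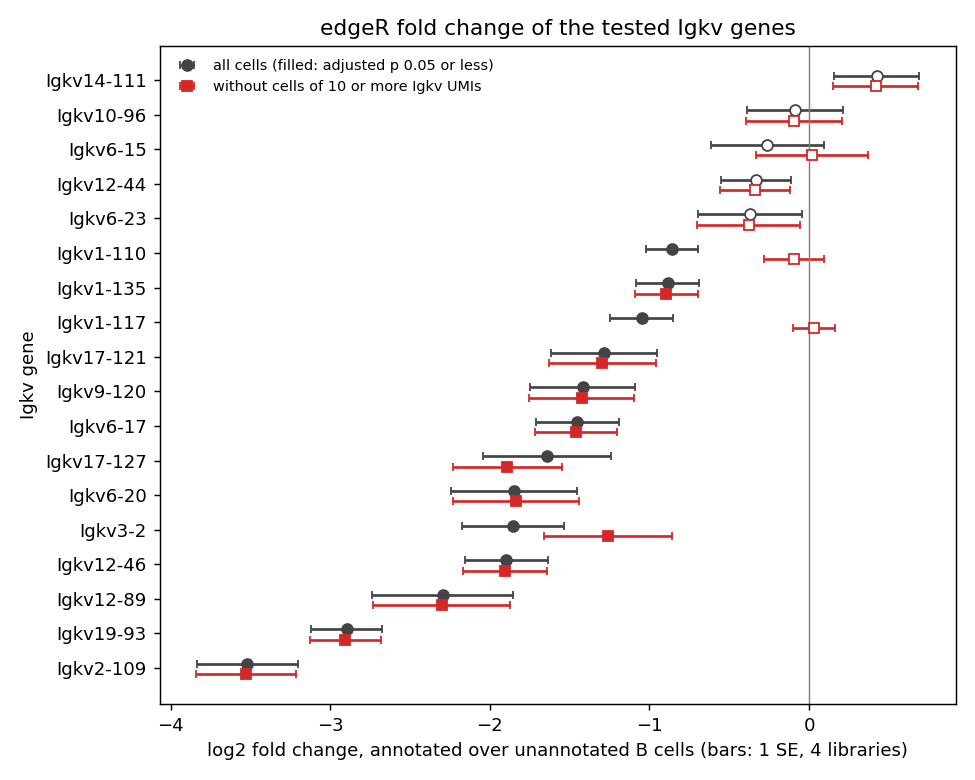
Log2 fold change of the 18 tested Igkv genes (y axis), annotated over unannotated B cells, from edgeR with 1 SE over 4 libraries (x axis). Black circles use all cells and red squares leave out cells of 10 or more Igkv UMIs, and filled symbols have an adjusted p of 0.05 or less. Igkv1-117 and Igkv1-110 move to near 0 while Igkv2-109, Igkv19-93 and Igkv12-46 stay at the low end.

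Read as usage, which removes the lower total of Igkv RNA, the leading genes took a larger share of annotated cells. From 1 UMI, Igkv1-117 was the leading gene in 9.84% of called annotated cells for WT, 12.1% for C, 8.89% for K and 15.4% for CK, with a mean over libraries of 11.5% against 6.69% in unannotated B cells, and was higher in 4 of 4 libraries. Igkv1-110 took 8.25%, 17.0%, 11.4% and 11.8%, with a mean of 12.1% against 7.66%, again higher in 4 of 4. Igkv14-111 took 7.30%, 4.82%, 3.95% and 3.22%, with a mean of 4.82% against 1.87%, higher in 4 of 4. Igkv19-93 took a mean of 2.19% against 7.10% and Igkv12-46 a mean of 2.51% against 6.49%, and Igkv2-109 0.61% against 4.11%, each lower in 4 of 4. Of 34 genes with a mean share of 1% or more in either class, 7 were higher in annotated cells in all 4 libraries, 8 in none, and 19 varied, Igkv1-135 among them with 6.41% against 6.44%. These shares were not tested.

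**Figure D3:**
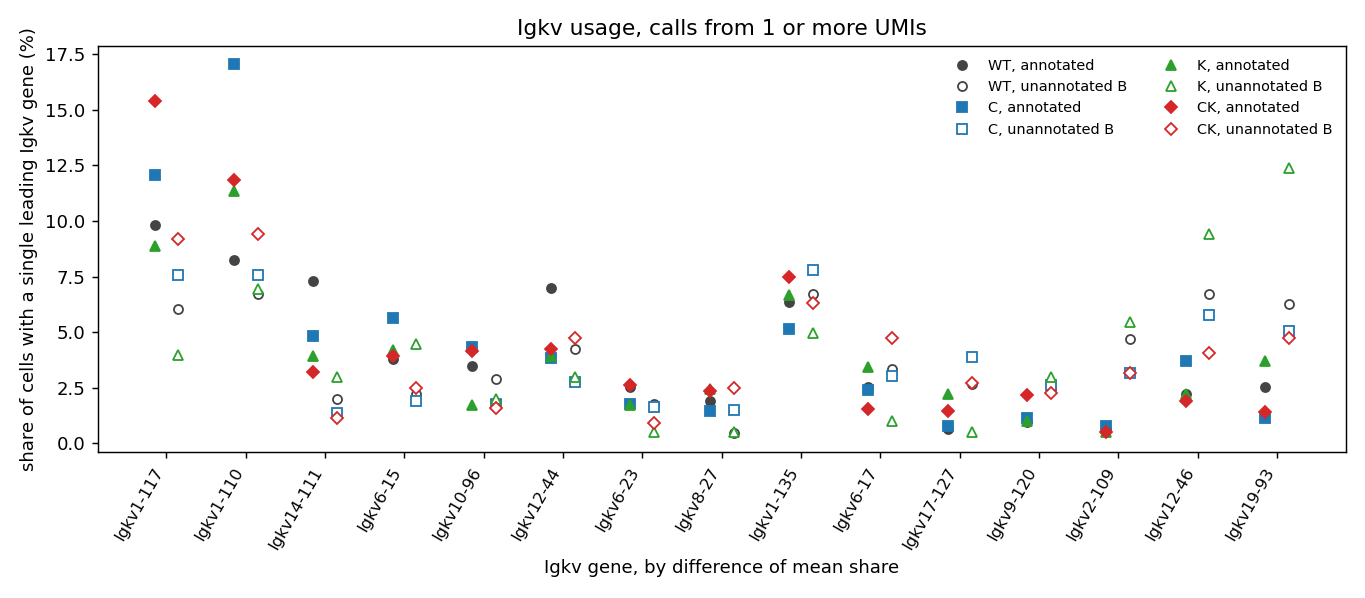
Share of cells with a single leading Igkv gene (y axis, percent, calls from 1 UMI) for genes with a mean share of 2% or more in either class (x axis, ordered by the difference of mean share). Filled symbols are annotated cells, open symbols unannotated B cells, and shape and color mark the library. Igkv1-117, Igkv1-110 and Igkv14-111 are higher in annotated cells in all 4 libraries, and Igkv2-109, Igkv12-46 and Igkv19-93 are lower in all 4.

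With the summed Igkv UMIs of each class in place of all UMIs as the library size, also added after the data were seen, edgeR called 6 of 19 tested Igkv genes higher and 4 lower, at a scale where the median of all genes shifted by 1.10 and 82.6% of all genes were called higher and 6.26% lower. Igkv14-111 was higher by 1.46 (adjusted p = 7.6e-07), and Igkv6-15 and Igkv12-44 were among the other 5, by 0.81 and 0.73. Igkv2-109, Igkv19-93, Igkv12-46 and Igkv3-2 were the 4 lower genes. In the main comparison Igkv2-109, Igkv19-93 and Igkv3-2 reached the cutoff in 0, 1 and 1 annotated libraries, so the same limit can apply on this scale. Igkv1-117 (0.03) and Igkv1-110 (0.25) did not pass on this scale, which includes the 18 cells named above. Usage in B cells with GC markers outside the annotation was close to that of the annotated cells, with Pearson values of 0.88 to 0.98 across functional genes within a library, against 0.71 to 0.94 for unannotated B cells and 0.23 to 0.79 for cells with plasma cell markers. Igkv19-93 led in B cells with GC markers in 1.91% of cells called from 1 UMI for WT, 1.497% for C, 1.30% for K and 1.94% for CK, against 2.54%, 1.13%, 3.70% and 1.39% in annotated cells.

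How often UMIs of a gene stood beside UMIs of the same gene was described in cells with 2 to 9 Igkv UMIs, as the mean share of the cell's other Igkv UMIs that were of that gene. In annotated cells it was 70.4% for Igkv1-117 (139 cells) and 72.9% for Igkv1-110 (106 cells), and in unannotated B cells it was 47.4% (51 cells) and 28.0% (50 cells). Igkv14-111 had 71.3% against 20.8% and Igkv12-44 had 65.1% against 36.4%, so that all 4 of these genes were higher in annotated cells. Igkv1-117, Igkv1-110 and Igkv12-44 had most calls at 3 UMIs there, a choice that can favor repeated UMIs of 1 gene. Annotated cells were lower for Igkv1-135 (55.3% against 58.5%), Igkv17-127 (53.4% against 61.4%), Igkv6-15 (51.1% against 61.8%) and Igkv3-2 (26.7% against 88.9%). Igkv3-1 was also lower in annotated cells, on 6 and 2 cells, and the other named genes were higher. Within unannotated B cells the lowest shares were those of Igkv19-93 with 9.13% (42 cells), Igkv12-46 with 11.9% (45 cells), Igkv2-109 with 13.0% (23 cells) and Igkv12-89 with 15% (10 cells). Other genes called lower in annotated cells had high shares there, with 58.5% for Igkv1-135 (41 cells), 61.4% for Igkv17-127 (22 cells) and 88.9% for Igkv3-2 (9 cells). In annotated cells Igkv12-46 had 46.2% (26 cells) and Igkv19-93 22.2% (9 cells). Most unannotated B cells with one of these 3 genes had no other Igkv gene, as another was present in 39 of 152 cells with Igkv19-93, 40 of 153 with Igkv12-46 and 20 of 91 with Igkv2-109.

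**Figure D4:**
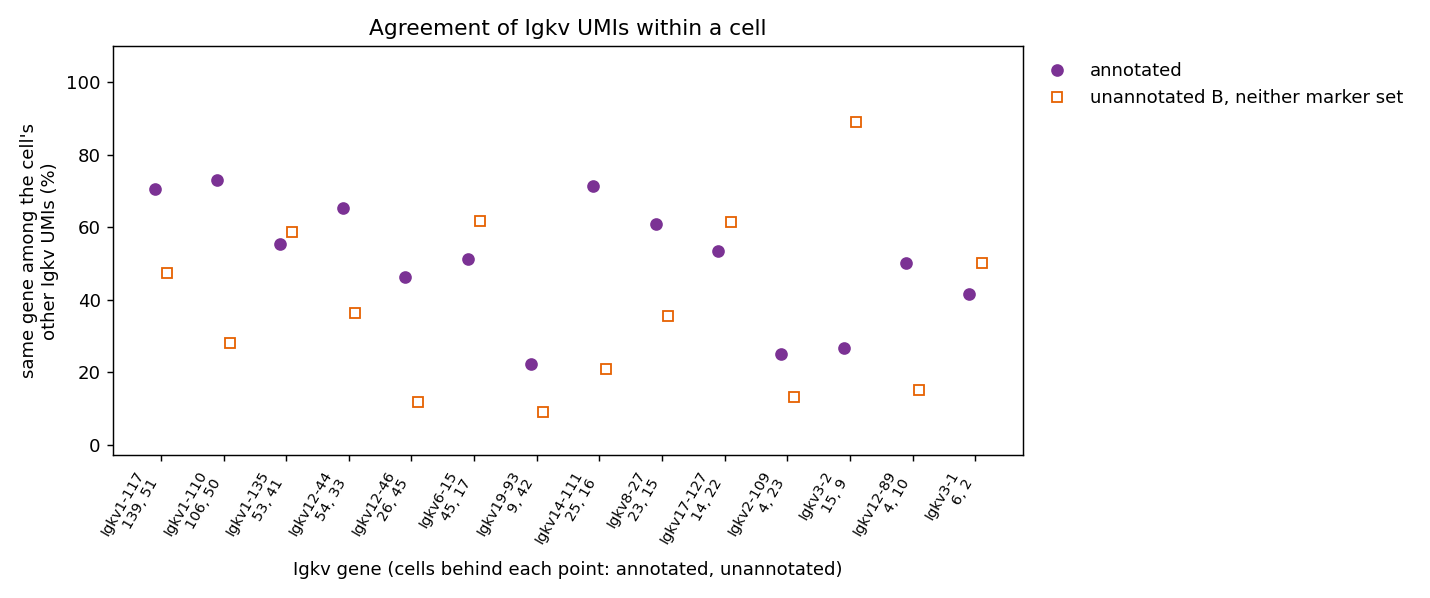
Mean share of a cell's other Igkv UMIs that belong to the same gene (y axis, percent) for each named gene (x axis, with the number of cells behind each point), in cells with 2 to 9 Igkv UMIs. Filled circles are annotated cells and open squares unannotated B cells. In unannotated B cells Igkv19-93, Igkv12-46 and Igkv2-109 lie at 9.13% to 13.0%, Igkv1-110 at 28.0% and Igkv1-117 at 47.4%, and the last pair lies at 72.9% and 70.4% in annotated cells.

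The same 3 genes were examined in lambda cells after their values were seen. Of 692 unannotated B cells with at least 10 times as much lambda as kappa constant RNA, 11.3% had an Igkv UMI (9.01% to 13.9%), and none had a call. Igkv19-93, Igkv12-46 and Igkv2-109 together held 30 of their 86 Igkv UMIs (34.9%, 24.9% to 45.9%). In kappa-led unannotated B cells under 10 Igkv UMIs they held 331 of 2337 (14.2%, 12.8% to 15.6%), over all 4 libraries. By library the shares were 40.0% against 16.7% for WT, 36.4% against 12.1% for C, 28.6% against 22.4% for K and 35.3% against 11.99% for CK, higher in lambda cells in 4 of 4 on 15 to 33 UMIs each, but with intervals that overlapped in WT, K and CK. Singly, Igkv19-93 held 16.3% against 5.18% and Igkv12-46 14.0% against 5.52% of these UMIs, whereas Igkv2-109 held 4.65% against 3.47%, with overlapping intervals and 0 UMIs in the lambda cells of WT and CK. In T cells the 3 genes held 2 of 57 Igkv UMIs (3.51%).

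The mutant libraries were set beside WT as log2 ratios of CPM in annotated cells, for genes with 20 or more UMIs over both libraries, where past 2-fold counts as called and no test was possible. In C, 4 of 16 Igkv genes were higher and 0 lower, beside 1.61% and 0.877% of all genes, with a median of 0.36. In K, 1 of 11 was higher and 6 were lower, beside 1.79% and 8.89% of all genes, with a median of -1.24. In CK, 9 of 27 were higher and 0 lower, beside 3.91% and 2.5% of all genes, with a median of 0.72. The medians over all genes were 0.01, -0.16 and -0.03. The ratios compare single mice, in which clones were not resolved. The annotated cells of CK held 15412067 UMIs and those of WT 6064094, so a gene could reach the 20 UMIs mainly through CK. Several genes called higher had few WT UMIs, as Igkv9-120 with 46 in CK and 4 in WT and Igkv8-28 with 22 and 2. In C, Igkv5-43 had 19 UMIs against 4 in WT. The shares of all genes were not matched for count, so the counts of higher genes are in part set by the filter. In unannotated B cells the medians over 28, 14 and 20 Igkv genes were 0.18, -0.47 and 0.45, and the calls there were 6 higher and 1 lower in C, 1 and 4 in K, and 8 and 0 in CK, beside 0.724% and 0.803%, 0.681% and 8.34%, and 1.05% and 1.7% of all genes (in either direction 1.53%, 9.02% and 2.75%).

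Igkv1-110 had 33 UMIs for WT, 160 for C, 58 for K and 204 for CK annotated cells. Its log2 ratio to WT was 1.76 in C (1.21 to 2.34), -0.25 in K (-0.89 to 0.41) and 1.28 in CK (0.75 to 1.86). In unannotated B cells it was 1.45 in C (0.96 to 1.97), -0.63 in K and 1.90 in CK (1.38 to 2.44). There it depended on the cells of 10 or more Igkv UMIs, without which (added after the data were seen) it was 0.48 in C (-0.07 to 1.04), -0.71 in K and 0.83 in CK (0.22 to 1.44), while the values of C and CK in annotated cells were the same. Igkv1-117 had 49, 120, 42 and 286 UMIs in annotated cells, with ratios of 0.77 in C (0.28 to 1.28), -1.29 in K (-1.92 to -0.66) and 1.20 in CK (0.76 to 1.67), and of -0.35 in K relative to the summed Igkv UMIs. Its ratios in unannotated B cells were 0.37 in C (-0.09 to 0.85), 0.18 in K (-0.42 to 0.77) and 1.82 in CK (1.39 to 2.28), and without cells of 10 or more Igkv UMIs 0.89, -1.16 and 1.38. Igkv14-111 had a ratio of -0.40 in C (-1.11 to 0.32), -1.76 in K and -0.88 in CK (-1.55 to -0.20). Igkv17-127 had 3 UMIs in WT and 20 in K, a log2 ratio of 1.67 (-0.08 to 4.07), and 11 of the 20 were in 1 cell.

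In K all Igkv genes together were counted less. Relative to Igkc, Igkv UMIs numbered 5.94 per 1000 Igkc UMIs for WT annotated cells, 7.22 for C, 2.86 for K (2.61 to 3.11) and 7.24 for CK. K was also lowest in B cells with GC markers (2.82, against 5.82 to 7.22), in unannotated B cells (3.82, against 7.33 to 9.12) and in cells with plasma cell markers (1.79, against 5.42 to 7.45), and its intervals overlapped with none of the others. Heavy chain V genes moved with it, at 23.1 CPM for WT, 27.6 for C, 7.73 for K and 23.6 for CK annotated cells, while Igkc CPM in K lay between WT and C. Their part in the result was not tested. Relative to the summed Igkv UMIs, 1 of the 11 genes in K was higher and 1 lower than WT, with a median of -0.30, 4 of 16 higher and 1 lower in C, with a median of -0.11, and 3 of 27 higher and 1 lower in CK, with a median of 0.21. The medians of unannotated B cells on this scale were -0.27 in C, 0.0038 in K and -0.36 in CK, with 3 higher and 1 lower, 1 and 2, and 3 and 3, so that the signs of C in both classes, and of K and CK in unannotated B cells, turned with the scaling. The share of all genes past 2-fold on this scale is not given. The counts of higher and lower genes here thus have no background and do not set Igkv genes apart from other genes. On this scale the log2 ratio of Igkv1-110 was 1.28 in C, 0.76 in CK and 0.68 in K, so its direction in K depended on the scaling.

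**Figure D5:**
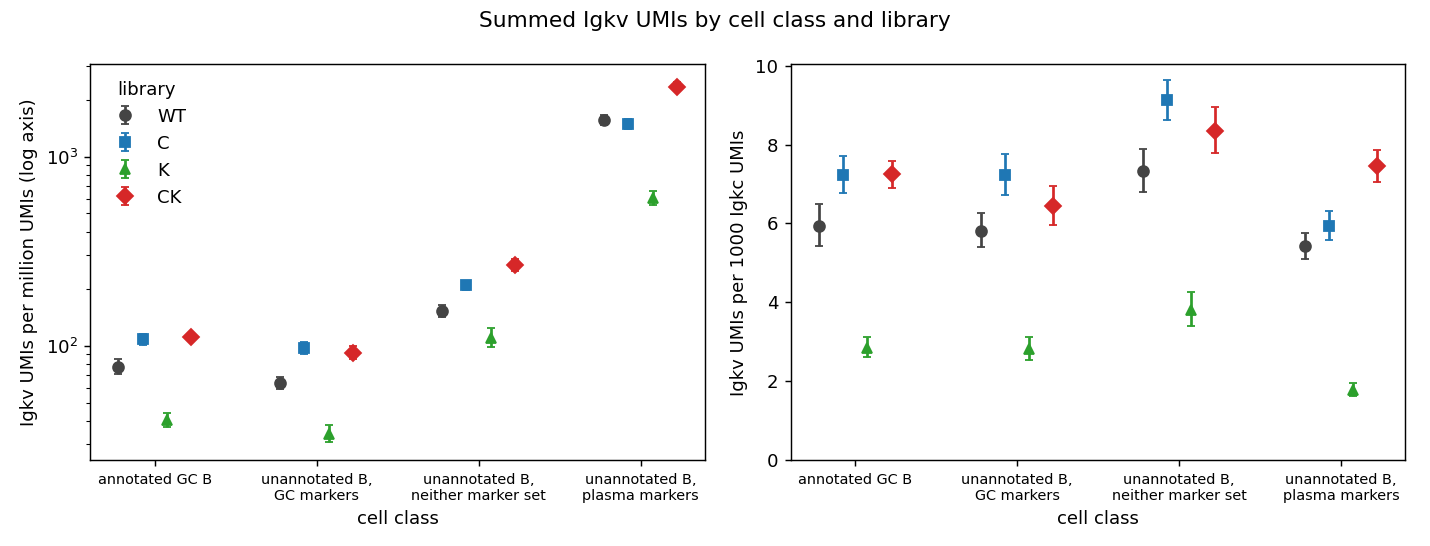
Summed Igkv UMIs in CPM (left, log axis) and per 1000 Igkc UMIs (right) for 4 cell classes (x axis), with 1 point per library and exact Poisson 95% intervals for counting error. K lies lowest in each class on both axes, at 2.86 against 5.94 to 7.24 per 1000 Igkc UMIs in annotated cells.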

How the data were processed

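The UMI counts per gene and barcode were deposited as matrices that the authors made with Cell Ranger (3.0 per the labels, 3.0.2 in the file headers) on mm10, without normalization. The table of annotated cells, with subtypes assigned in Seurat 4.0 by transfer from reference data, gives UMI and gene counts and the percent of mitochondrial UMIs as the authors deposited them, and holds no cell with 2500 genes or more or 8% or more mitochondrial UMIs. Cells were matched to matrices by library and barcode.

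A call needed 3 UMIs of 1 Igkv gene and no tie. Unannotated B cells had at least 3 UMIs over at least 2 B cell markers and at most 1 UMI of other lineages. T cells were chosen by their own markers. The B cell markers are not listed by name, since not all of them are reported here. Intervals are exact 95% (Clopper-Pearson or Poisson), except normal approximations for same-gene probabilities, and a count of 0 is given the limit of 3 counts. Depth is given as UMIs per library and class. Counts were summed per library and class and tested with edgeR 4.0.16 (TMM, quasi-likelihood, library as a block, Benjamini-Hochberg over all genes), the annotated and unannotated cells of a library being from 1 mouse. P-values measure the spread over 4 mice that differ in genotype. On simulated counts of 10194 genes this recovered 92.6% of 2-fold and 100% of 4-fold changes, with 0.03% false calls. The changed genes were drawn from well-counted genes, at a fixed dispersion and with no library effect. The rates need not hold for sparsely counted Igkv genes, whose sums can follow single cells. DESeq2 1.42.0, other filters, totals, minimum UMIs, thinning to 2000 UMIs, Scrublet removal and leaving out each library were alternatives. Python used numpy 2.4.6, scipy 1.17.1, pandas 2.3.3 and scanpy 1.11.5.

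Named genes were the 5 with most calls per library, the 5 most used in unannotated B cells, the 3 largest and 3 smallest differences in share and the 5 highest and lowest significant fold changes. The members and lists were chosen with earlier results of these data known.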

Additional observations from a re-analysis of the deposited data

How the results depend on the processing

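Calls rest on few UMIs, so the share of annotated cells with a call moved with the minimum. For WT, C, K and CK it was 25.7%, 30.5%, 15.7% and 29.1% at 1 UMI (added after the data were seen), 4.97%, 7.59%, 1.90% and 6.30% at 2 UMIs, 0.326%, 0.294%, 0.0774% and 0.126% at 5 UMIs, and 0.169%, 0.207%, 0.0802% and 0.414% after thinning to 2000 UMIs. K was lowest under each of these. However, the shares at 5 UMIs rest on 4, 6, 2 and 5 cells for WT, C, K and CK. Those after thinning rest on 2, 4, 2 and 15, so the rank of K carries little weight in both.

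The share of calls held by Igkv12-44 in WT was 6.98% at 1 UMI, 0 after thinning and 7.66% of summed Igkv UMIs. Igkv1-110 fell to 0 after thinning in C, and to 0 in K at 5 UMIs and after thinning. Igkv1-117 in CK held 15.4% at 1 UMI and 16.7% of summed UMIs. The same-gene probability in annotated cells was 16.7% in WT and 20% in C at 5 UMIs (4 and 6 called cells). It was 0 in both after thinning (2 and 4 called cells). In K it was 3.71% at 1 UMI and 3.997% at 2 UMIs, and in CK 5.45% at 1 UMI and 0 at 5 UMIs (5 called cells). In unannotated B cells of C it was 10.0% at 5 UMIs and after thinning (5 called cells after thinning), and 8.50% over all unannotated B cells. In those of K it was 4.28% at 1 UMI, 5.49% at 2 UMIs, 0 at 5 UMIs, 100% after thinning and 5.59% over all unannotated B cells. The 100% is 1 pair, since 2 cells were called. Values at 5 UMIs and after thinning are thus no estimate of usage.

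Genes past 2-fold over WT numbered 2 in C at a minimum of 50 UMIs and 1 at 100 UMIs, 0 in K at 100 UMIs and 2 scaled to summed Igkv UMIs, and 4 in CK at 50 UMIs, 2 at 100 UMIs and 4 scaled to summed Igkv UMIs. Without cells of 10 or more Igkv UMIs (added) they numbered 4 of 16 in C, 6 of 10 in K and 9 of 27 in CK. For the other settings neither the number of Igkv genes tested nor the share of all genes is given. A lower count at a higher minimum can thus follow from fewer genes reaching it.

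In the edgeR comparison 31 of 123 Igkv genes (25.2%) were lower with no filter on low counts, beside 21.3% of all genes. Leaving out each library gave 10 to 16 lower of 15 to 25 tested and 0 higher, beside 29.6% to 31.9% of all genes lower. Without the library term, that is with no replicate block, 11 were lower, and Igkv1-117 and Igkv1-110 lost the call (adjusted p = 0.081 and 0.16) at log2 changes of -1.04 and -0.88, close to those of the main comparison. On totals of Igkv UMIs (added) 6 were higher and 4 lower of 19, beside 82.6% and 6.26% of all genes, and Igkv12-44 (0.73), Igkv1-117 (0.034), Igkv1-135 (0.21), Igkv6-15 (0.81) and Igkv1-110 (0.25) reversed in sign. Without cells of 10 or more Igkv UMIs (added) Igkv1-117 (0.031) and Igkv6-15 (0.020) reversed. Igkv6-15, not called in the main comparison, had log2 changes of -0.69 to 0.094 when each library was left out, above 0 without K and without CK. The causes were not tested, beyond the cells that the last alternative removes.

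No paired analysis was possible because the labels give each genotype 1 library and no replicate numbers that pair genotypes. Counting each heavy and light chain pair once was not run, since 2 annotated cells had both calls.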

Other observations

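B cells with plasma cell markers, 203 in all and outside the annotation, gave most of the deep calls. A call was made in 31 of 42 such cells in WT, 37 of 49 in C, 38 of 61 in K and 47 of 51 in CK. Igkv1-110 led in C with 10 cells and Igkv1-117 in CK with 7, while Igkv19-93 led in WT with 5. In WT a single cell with 227 UMIs of Igkv1-99 held 20.7% of the Igkv UMIs of the class, and in K a cell with 55 UMIs of Igkv10-96 held 10.4%, so summed UMIs of this class follow single cells.

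With the heavy chain V gene called in the same way from 1 UMI, Igkv19-93 and Ighv2-6-8 were paired in 4 of the plasma-marker cells of WT, and Igkv1-110 and Ighv1-9 in 4 of those of C. These pairs were seen in the data and not tested, and a shared pair of genes does not show a shared clone.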
